A study of Mus musculus with 6 samples.

Results

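Immunoglobulin G (IgG) and the complement peptides C3a and C5a act on microglia through 2 small sets of receptors, and the values of these 8 receptor genes were examined in brain microglia at the peak of EAE (experimental autoimmune encephalomyelitis), which models multiple sclerosis in mice. The genes were Fcgr1, Fcgr3, Fcgr4, Fcer1g and Fcgr2b for the Fc receptors, and C3ar1, C5ar1 and C5ar2 for the anaphylatoxin receptors. They were picked out by gene symbol, with no threshold on their values, but the set was chosen with earlier results of these data known. Counts of receptors beside the share of all probe sets are therefore a description. All 8 were on the array, each with 1 probe set, out of 22206 probe sets and 19505 named genes. The 3 arrays of the conditional knock-out group (CKO) carried RNA of microglia from mice labelled as a B cell conditional knock-out, and the 3 control arrays carried RNA from mice labelled only as control. The series title links this knock-out with B cells producing GM-CSF, a growth and activation factor of myeloid cells. The sources used here give neither the deleted gene, the Cre driver and the age of the mice nor the way microglia were isolated. Both groups were female C57BL/6 mice immunised under the skin with 100 μg of recombinant myelin oligodendrocyte glycoprotein in incomplete Freund's adjuvant, with 300 ng of pertussis toxin on that day and again 48 h later. Whether each replicate was a separate animal is not stated in the labels, so the p-values cover only the spread among these samples, and that spread may be technical.

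Fc gamma receptors bind the constant part of IgG on coated particles, cells or immune complexes. Fcgr1, Fcgr3 and Fcgr4 encode the activating receptors of the mouse. They pair with the gamma chain encoded by Fcer1g, whose activation motif is phosphorylated by Src family kinases and recruits the kinase Syk. Fcgr2b encodes the inhibitory receptor, whose own motif recruits phosphatases that end the signal. C3ar1 and C5ar1 encode G protein-coupled receptors for C3a and C5a, the fragments released when complement is cleaved, and C5ar2 encodes a second C5a receptor that does not couple to G proteins in the same way. In the brain these receptors are found mainly on microglia and other macrophages, while neutrophils, NK cells, mast cells and B cells carry some of them too.

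Promoter windows from 250 bases before to 50 after an annotated start were taken from RefSeq (GRCm38.p6), where all 8 genes matched, with 10 windows in all. They were searched on both strands for GAGGAAG, a core of sites for PU.1, the transcription factor of myeloid cells. Among 32817 windows of all genes, 13.6% held this pattern. The 3 activating receptors are shown because each held the PU.1 pattern. The inhibitory receptor Fcgr2b is shown for comparison, since the pattern was not found in its window. Capitals mark the matches; CTTCCTC is GAGGAAG read on the other strand.
Fcgr1 (chr3:96293920-96294219, minus strand): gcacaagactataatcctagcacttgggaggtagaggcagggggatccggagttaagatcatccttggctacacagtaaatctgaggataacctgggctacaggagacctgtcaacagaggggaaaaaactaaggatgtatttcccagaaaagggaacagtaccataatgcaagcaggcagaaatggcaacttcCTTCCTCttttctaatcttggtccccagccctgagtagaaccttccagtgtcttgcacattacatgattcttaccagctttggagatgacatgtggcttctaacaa
Fcgr3 (chr1:171059354-171059653, minus strand): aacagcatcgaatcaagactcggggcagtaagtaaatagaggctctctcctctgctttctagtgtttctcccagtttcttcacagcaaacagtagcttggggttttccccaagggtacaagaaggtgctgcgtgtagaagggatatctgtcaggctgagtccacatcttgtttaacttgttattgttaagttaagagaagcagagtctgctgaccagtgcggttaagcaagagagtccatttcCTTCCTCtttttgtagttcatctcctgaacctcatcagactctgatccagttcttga
Fcgr4 (chr1:171018676-171018975, plus strand): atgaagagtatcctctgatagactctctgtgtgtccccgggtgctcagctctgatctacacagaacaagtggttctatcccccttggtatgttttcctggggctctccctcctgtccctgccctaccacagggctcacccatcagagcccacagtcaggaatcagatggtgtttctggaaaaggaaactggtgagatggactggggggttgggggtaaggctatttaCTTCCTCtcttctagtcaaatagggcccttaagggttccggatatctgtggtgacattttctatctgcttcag
Fcgr2b (chr1:170976022-170976321, minus strand): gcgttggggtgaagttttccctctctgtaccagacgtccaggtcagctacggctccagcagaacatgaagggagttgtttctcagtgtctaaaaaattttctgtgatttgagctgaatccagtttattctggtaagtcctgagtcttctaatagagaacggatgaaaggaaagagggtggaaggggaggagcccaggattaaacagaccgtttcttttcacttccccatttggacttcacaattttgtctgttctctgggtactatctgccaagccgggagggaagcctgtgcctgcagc
Counted from the start site, the PU.1 pattern lay at -56 to -50 in Fcgr1, at -7 to -1 in the Fcgr3 window shown and at -23 to -17 in Fcgr4. Of the other genes, only C5ar2 held a match, in 1 of its 2 windows. A match describes letters in a window and shows no binding. Fcgr2b, Fcgr4 and Fcgr3 follow each other on chromosome 1 with no protein-coding gene between them, and 7 such genes separate Fcgr3 from Fcer1g. C5ar2 and C5ar1 are direct neighbours on chromosome 7.

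The arrays differed within the groups before any gene was compared. Expression values are on the log2 scale, on which 1 unit is a doubling of signal. All values of an array had an interquartile range of 4.00 for CKO replicate 1, of 3.08 for CKO replicate 2 and of 3.11 for CKO replicate 3, and of 3.66 to 3.74 for the controls. Markers of astrocytes deviated by 2.92 from their 6-array mean on CKO replicate 1 and by 1.43 on control replicate 2. Microglial markers were high on all arrays: the mean of 8 such genes ran from 16.25 to 16.90 on CKO arrays and from 15.89 to 16.39 on control arrays. P2ry12, which defines resting microglia, averaged 19.69 ± 0.04 in CKO and 19.14 ± 0.33 in controls (SD, n = 3 each), close to the highest values of the arrays (19.70 to 19.93). The neutrophil marker Ngp was about as bright, at 19.51, 19.51 and 19.55 on the CKO arrays and 19.67, 19.62 and 19.23 on the control arrays. The mean of 9 neutrophil markers ran from 14.52 to 14.94 on CKO arrays and from 14.80 to 15.44 on control arrays.

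The mean of every receptor was lower in the CKO isolates than in the control isolates, by log2 differences of -0.13 to -2.51. The sign turned for Fcgr1, Fcgr3 and Fcgr2b when the arrays were centred and scaled to a common interquartile range. For C5ar1 and C5ar2 it turned when some arrays were left out. Of all probe sets, 44.5% were lower at any size and 55.5% higher. None of the 8 passed limma's test over all probe sets at an adjusted p of 0.05, a threshold that 0.00901% of all probe sets passed. The lowest adjusted p was that of Fcgr4, at 0.103, and the highest that of C5ar2, at 0.930. At an unadjusted p under 0.05, 3 receptors were lower (Fcgr4, C3ar1 and Fcgr2b) and 0 higher, where 6.35% of all probe sets were lower at that p and 3.55% higher. The groups did not overlap for 4 of 8 receptors (Fcgr4, C3ar1, Fcgr2b and Fcgr1), each lower in CKO. Among all probe sets, 8.48% were separated in that direction, 5.94% in the other and 14.4% in either. With quantile normalization 3 receptors were separated, and with interquartile scaling 1. The share of all probe sets separated under these rescalings was not counted, so these counts cannot be set against 8.48%. All 8 receptors lay among the 11104 probe sets at or above the median level, where the share separated and lower was 14.2%, the share lower at an unadjusted p under 0.05 was 11.1%, the share lower at any size 58.9% and the median log2 difference -0.11. Without CKO replicate 1, 7 receptors were separated and lower and 2 passed the test (Fcgr4 and C5ar1), against 21.3% and 4.94% of all probe sets in that fit. With CKO replicate 1 as the only CKO array, 4 receptors lay below all controls, against 30.8% of all probe sets. The median log2 difference of the 8 receptors was -0.82, and that of all probe sets 0.06; the receptors' median was -0.27 with interquartile scaling and -0.35 with CKO replicate 1 as the only CKO array. In RNA of a whole isolate, fewer cells of a type and less RNA per cell cannot be told apart.

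**Figure D1:**
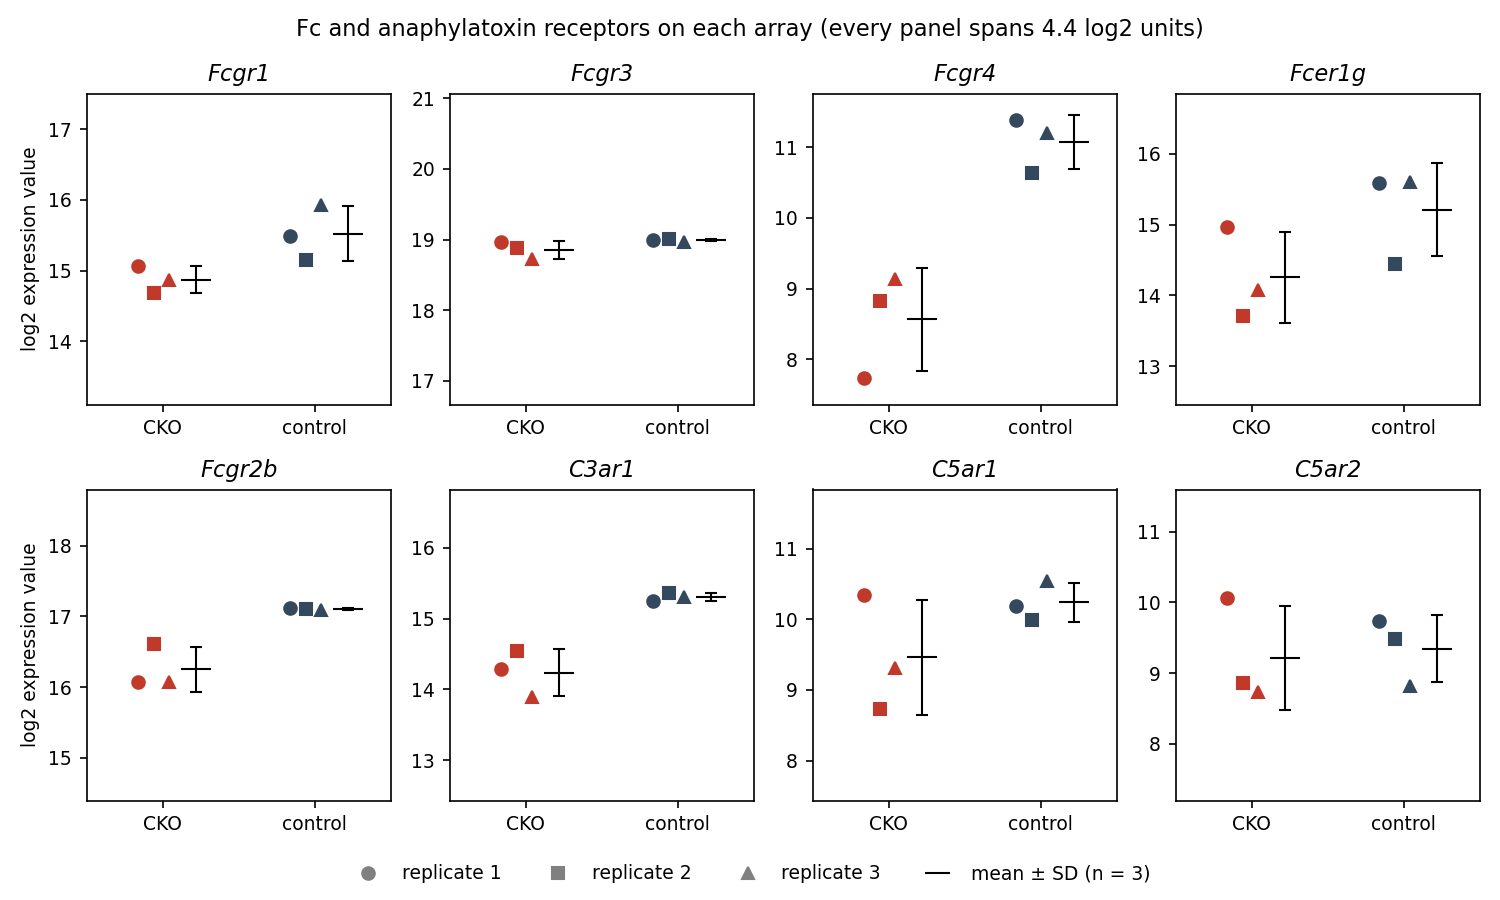
Log2 expression value (vertical axis) of each receptor gene on the 3 CKO arrays (left) and the 3 control arrays (right), with symbols for the replicate number and a bar for mean ± SD (n = 3); all panels have the same span. The groups are separated for Fcgr4, Fcgr2b, C3ar1 and, narrowly, Fcgr1, while CKO replicate 1 lies among or above the controls for C5ar1 and C5ar2.

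Fcgr4 had the widest difference of the 8. This receptor binds mouse IgG2a and IgG2b complexes. Its log2 value was 7.74, 8.83 and 9.13 on CKO replicates 1, 2 and 3, against 11.38, 10.64 and 11.20 on control replicates 1, 2 and 3. Every CKO array lay below every control array, with a gap of 1.51 between the nearest 2, and CKO replicate 1 was the lowest. The means were 8.57 ± 0.73 in CKO and 11.07 ± 0.39 in controls (SD, n = 3 each), a log2 difference of -2.51 (SE 0.41, 95% interval -3.44 to -1.57), or 5.68-fold less signal in CKO. The limma adjusted p was 0.103. Its place among all probe sets of an array, which does not depend on the scale, ran from 56.7% to 74.6% on CKO arrays and from 84.3% to 88.5% on control arrays. Without CKO replicate 1, Fcgr4 differed by -2.09 (limma adjusted p = 0.0123), in a fit that called 9.95% of all probe sets in either direction and in which the CKO group is only the 2 arrays of narrow range, so range and group cannot be told apart. CKO replicate 1 alone against the controls differed by -3.33 (adjusted p = 0.165).

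Fcgr1 encodes the high-affinity receptor, which binds single IgG molecules. Its log2 value was 15.06, 14.68 and 14.87 on the CKO arrays and 15.49, 15.15 and 15.93 on the control arrays. The groups were separated by only 0.09, with CKO replicate 1 and control replicate 2 at the border. In rank they overlapped: Fcgr1 lay above 98.45% to 98.68% of probe sets on CKO arrays and above 98.55% to 99.00% on control arrays. The log2 difference was -0.65 (SE 0.30, 95% interval -1.34 to 0.03, adjusted p = 0.518), and it became 0.01 (adjusted p = 0.993) with interquartile scaling.

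Fcgr3 encodes a low-affinity activating receptor and is a major Fc receptor of microglia. It stood at 18.97, 18.88 and 18.72 on the CKO arrays and at 19.00, 19.01 and 18.97 on the control arrays, above 99.7% of the probe sets of every array. The highest CKO array tied with the lowest control. The log2 difference was -0.14 (SE 0.25, adjusted p = 0.860), with a 95% interval of -0.71 to 0.43. With interquartile scaling it was 0.97 (adjusted p = 0.631). Whether the upper limit of the signal narrows this difference was not tested. Fcgr3 and Fcgr2b have closely related extracellular domains, and shared hybridisation between their probe sets was not tested; no receptor had values identical to another probe set.

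Fcer1g, the shared signalling chain, varied within both groups. It stood at 14.97, 13.71 and 14.08 on the CKO arrays and at 15.59, 14.45 and 15.60 on the control arrays. CKO replicate 1 lay above control replicate 2, so the groups overlapped. The log2 difference was -0.96 (SE 0.44, 95% interval -1.97 to 0.05, adjusted p = 0.519). It was -1.34 without control replicate 2 and -0.24 for CKO replicate 1 alone against the controls.

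Fcgr2b, the inhibitory receptor, was nearly constant among the controls. Its log2 value was 16.07, 16.61 and 16.07 on the CKO arrays and 17.12, 17.10 and 17.09 on the control arrays. All CKO arrays lay below the controls, with a gap of 0.48 against a control range of 0.03. The means were 16.25 ± 0.31 in CKO and 17.10 ± 0.02 in controls (SD, n = 3 each), a log2 difference of -0.85 (SE 0.27, 95% interval -1.48 to -0.23, adjusted p = 0.350). It was -1.03 for CKO replicate 1 alone, and 0.00092 (adjusted p = 1.0) with interquartile scaling. By place within the array, Fcgr2b lay above 99.05% to 99.42% of probe sets on CKO arrays and above 99.46% to 99.48% on control arrays. In rank the groups were thus apart only narrowly, with CKO replicate 2 at 99.42% and control replicate 1 at 99.46%.

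C3ar1, the C3a receptor, also varied little among the controls. It stood at 14.28, 14.54 and 13.89 on the CKO arrays and at 15.25, 15.36 and 15.30 on the control arrays. The gap between the groups was 0.71 and the control range 0.11. The log2 difference was -1.07 (SE 0.28, 95% interval -1.70 to -0.43, adjusted p = 0.231), or 2.09-fold less signal in CKO. It was -1.09 without CKO replicate 1 and -1.02 for that array alone, and shrank to -0.45 (adjusted p = 0.749) with interquartile scaling. In rank, C3ar1 lay above 97.6% to 98.3% of probe sets on CKO arrays and above 98.5% to 98.7% on control arrays.

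For the C5a receptors, CKO replicate 1 lay above the other CKO arrays, among the controls for C5ar1 and above all of them for C5ar2. C5ar1, which drives chemotaxis and activation of myeloid cells, stood at 10.34, 8.73 and 9.31 on the CKO arrays and at 10.19, 9.99 and 10.54 on the control arrays. The log2 difference was -0.78 (SE 0.42, 95% interval -1.74 to 0.18, adjusted p = 0.561). It was -1.22 without CKO replicate 1 (adjusted p = 0.0429) and 0.10 for that array alone, so the value rests on CKO replicates 2 and 3, the arrays of narrow range. C5ar2, the second C5a receptor, stood at 10.06, 8.86 and 8.73 on the CKO arrays and at 9.74, 9.48 and 8.82 on the control arrays. Its groups overlapped over most of their range, the highest array being a CKO array. The log2 difference was -0.13 (SE 0.43, 95% interval -1.10 to 0.84, adjusted p = 0.930), and it was 0.71 for CKO replicate 1 alone.

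**Figure D2:**
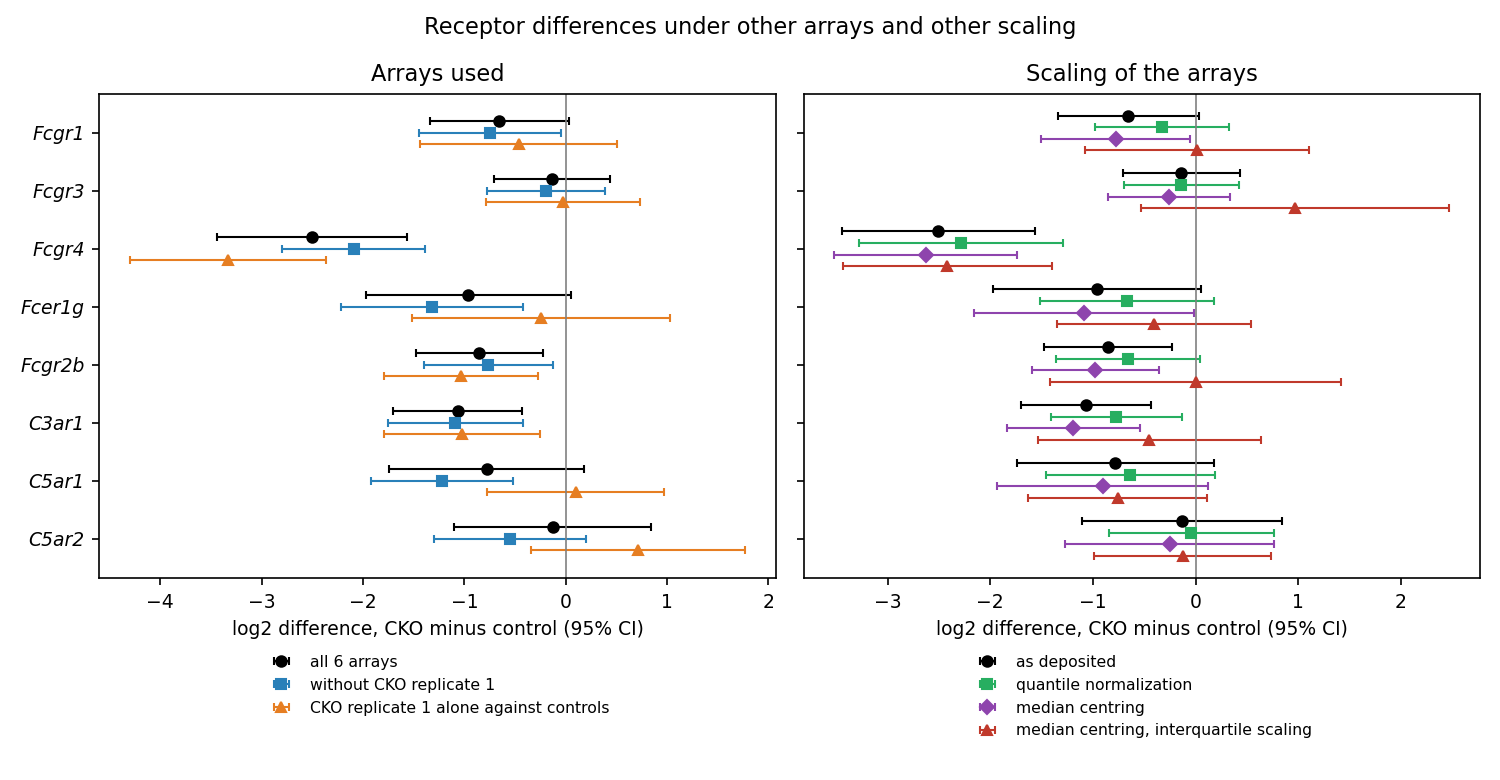
Log2 difference, CKO minus control, of each receptor (horizontal axis, points, with limma's 95% confidence interval as bars), on the left with all 6 arrays, without CKO replicate 1, or with CKO replicate 1 as the only CKO array, and on the right with the deposited values or after rescaling. Fcgr4 stays between -3.33 and -2.09 in all of these, C5ar1 and C5ar2 move above 0 when CKO replicate 1 stands alone, and Fcgr1, Fcgr3 and Fcgr2b reach 0.01, 0.97 and 0.00092 with interquartile scaling.

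Differences between receptors were formed within each array and compared between the groups, for 4 pairs, with an exact two-sided permutation test whose smallest possible p is 0.1. Each such value is a difference of 2 log2 values, and only its change between groups has a meaning. Fcgr4 minus Fcgr2b was -8.33, -7.78 and -6.94 on the CKO arrays and -5.74, -6.46 and -5.89 on the control arrays. The activating receptor was lower against the inhibitory one on every CKO array, by -1.65 on average (exact p = 0.1, 0.2 adjusted over the 4 pairs). Fcgr3 minus Fcgr2b was higher in CKO, with 2.90, 2.27 and 2.65 on the CKO arrays and 1.88, 1.91 and 1.88 on the control arrays, a difference of 0.72 (exact p = 0.1, adjusted 0.2). Fcgr3 lies near the top of the scale, so this value carries the untested limit given above. With quantile normalization the difference for Fcgr3 minus Fcgr2b was 0.52 (exact p = 0.2). Fcgr1 minus Fcgr2b differed by 0.20 (exact p = 0.7) and C5ar1 minus C5ar2 by -0.65 (exact p = 0.3), with overlapping groups in both. No pair could pass 0.05 in this design.

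Likeness over the 6 arrays was described by Pearson's r, which contains the difference between CKO and control. It was 0.97 between Fcgr2b and C3ar1 and 0.90 between Fcgr2b and Fcgr4. Fcer1g had r = 0.91 with Fcgr1 and 0.90 with C5ar1, and C5ar2 had r between -0.14 and 0.64 with the other 7. Control replicate 2 lay 1.15 below the mean of the other controls for Fcer1g, 0.65 below for Fcgr4 and 0.56 below for Fcgr1, but 0.005 below for Fcgr2b and 0.09 above for C3ar1. CKO replicate 1 lay above the mean of the other CKO arrays by 1.32 for C5ar1, 1.27 for C5ar2 and 1.08 for Fcer1g, and below it by 1.24 for Fcgr4. Over all arrays and 9331 named genes at or above the median level, those most like Fcgr4 were Plbd1 (r = 0.994), Aoah, an enzyme that inactivates lipopolysaccharide (0.993), and Mospd2 (0.989). Those most like Fcgr2b were Cast, which encodes the calpain inhibitor calpastatin (0.996), Rab27a, a GTPase of vesicle release (0.988), and H2-Eb1, a chain of MHC class II (0.988). Those most like C3ar1 were Brpf1 (0.996), the protease gene Ctsh (0.991) and Srgn, which encodes the granule proteoglycan serglycin (0.990). For Fcgr1 they were Nlrp1c-ps, Cep135 and Vcpkmt, for Fcgr3 Arhgap45, Ash2l and Decr1, and for Fcer1g Cenpa, Dennd1c and Etv6. For C5ar1 they were Rabggta, Ubl7 and Anks3, and for C5ar2 Akirin1, Plxna4 and Slco2b1. With 6 arrays such likeness is common: between 180 (Fcgr2b) and 633 genes (C5ar1) reached r = 0.9.

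No marker gene of any cell type passed limma's test over all probe sets (lowest adjusted p 0.0745), so marker lists are given as values. Without CKO replicate 1, 6 T cell, 5 blood monocyte, 3 border-associated macrophage and 1 B cell marker passed, counted in either direction. That fit called 9.95% of all probe sets, and its CKO group is only the 2 arrays of narrow range. Blood monocyte markers had lower means in CKO for all 8 genes (median difference -1.75), with list means of 11.64 to 12.42 on CKO arrays and 13.26 to 13.91 on control arrays. Among them, Fn1 differed by -2.48 and Tgfbi by -2.42, both of the extracellular matrix. Of 7 markers of border-associated macrophages 5 were lower (median -0.79, list means 8.54 to 9.13 in CKO and 9.41 to 9.69 in controls). Another of these 7, Lyve1, was higher in CKO by 1.33 (limma adjusted p = 0.145), without overlap between the groups. Of 9 neutrophil markers 7 were lower (median -0.36, 14.52 to 14.94 and 14.80 to 15.44), a list whose median became 0.24 with interquartile scaling. All 6 NK cell markers (median -1.72, 6.54 to 7.28 and 7.54 to 8.95), all 5 B cell markers (median -0.88, 5.66 to 6.26 and 6.61 to 7.32) and all 6 of mast cells and basophils (median -0.30, 7.36 to 7.95 and 7.76 to 8.55) were lower, as were all 7 T cell markers (median -3.10, 6.38 to 7.13 and 8.50 to 10.56) and all 6 of dendritic cells (median -0.68, 6.11 to 7.28 and 7.47 to 7.63). The log2 values have no true 0, so no marker could be called absent. Of 7 genes common to macrophages, 4 were lower and 3 higher, with a median of -0.04, a value that became 0.90 with interquartile scaling. Ptprc, the leukocyte antigen CD45, stood at 13.62, 15.05 and 13.90 on the CKO arrays and at 15.49, 15.28 and 15.67 on the control arrays (difference -1.29, limma adjusted p = 0.324), without overlap. Aif1, the macrophage protein Iba1, differed by -0.36, and Itgam, the alpha chain of complement receptor 3, by 0.02. Csf1r, the receptor for macrophage colony-stimulating factor, differed by 0.03, and Spi1, which encodes PU.1, by -0.04. Both lay close to the highest values of the arrays, and whether the upper limit of the signal narrows their differences was not tested. Other lists had higher medians in CKO. Of 8 microglial markers 6 were higher (median 0.34), with Gpr34, a receptor of microglia, at 18.59, 18.56 and 18.46 on the CKO arrays and at 17.89, 17.92 and 17.14 on the control arrays (difference 0.89, limma adjusted p = 0.383). The remaining markers, Tmem119 and Sall1, were lower, by -0.44 and -0.16. The median of the microglial list was 0.215 with median centring alone and 1.22 with interquartile scaling. Of 6 astrocyte markers 4 were higher (median 0.82, list means 9.95 to 13.95 in CKO and 9.53 to 12.46 in controls), as were 4 of 4 of oligodendrocytes (median 0.83, 9.45 to 11.67 and 8.66 to 11.04) and 4 of 4 of neurons (median 0.96, 9.35 to 11.32 and 8.54 to 10.20). Without CKO replicate 1 these 3 medians were -0.63, -0.06 and 0.39. Endothelial markers were lower for 2 of 4 genes (median -0.27). The dendritic cell median was -0.31 without CKO replicate 1 and -1.53 for that array alone. The part of these cells in the receptor values was not tested.

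**Figure D3:**
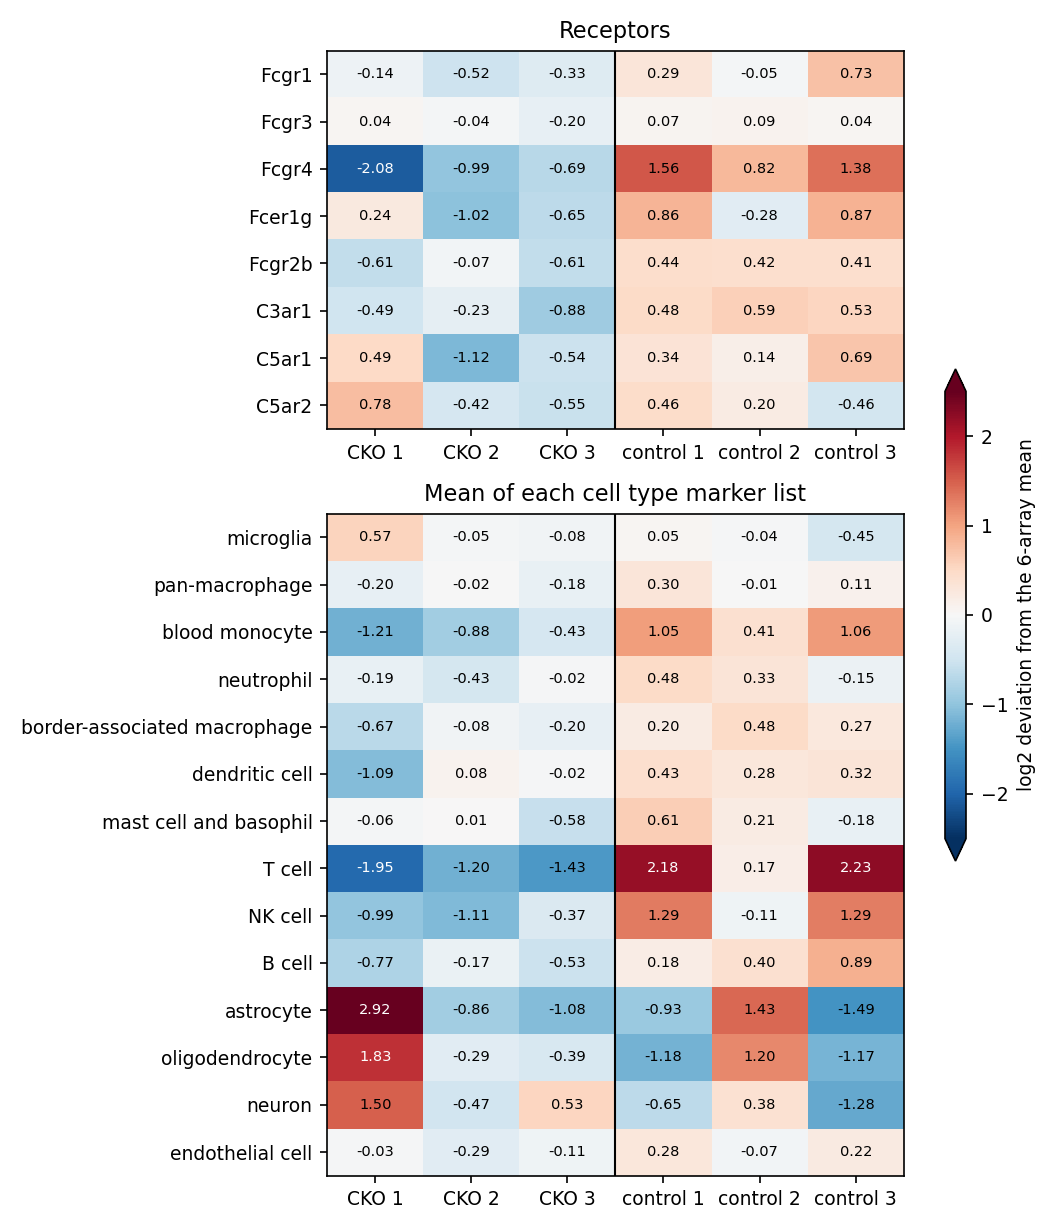
Log2 deviation from the 6-array mean (colour and number) of each receptor (upper panel) and of the mean of each cell type marker list (lower panel) on the 3 CKO arrays (left) and the 3 control arrays (right). Fcgr4 is lowest on CKO replicate 1 (-2.08). Markers of T cells (-1.95), blood monocytes (-1.21), dendritic cells (-1.09), B cells (-0.77), border-associated macrophages (-0.67) and all macrophages (-0.20) are also lowest there. NK cell and neutrophil markers are lowest on CKO replicate 2, and astrocyte markers are highest on CKO replicate 1 (2.92). Among the CKO arrays, Fcer1g (0.24), C5ar1 (0.49) and C5ar2 (0.78) are also highest on replicate 1, as are Fcgr1 and Fcgr3. Among the controls, replicate 2 is lowest for Fcgr4, Fcer1g, Fcgr1 and C5ar1, but not for Fcgr2b, C3ar1, Fcgr3 or C5ar2. Control replicate 2 is also the lowest control for T cell (0.17), NK cell, blood monocyte, dendritic cell, endothelial and pan-macrophage markers.

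The genes that carry the signal of activating Fc receptors had lower means in CKO. Of 12 measured kinases and adaptors, 12 were lower with a median log2 difference of -0.67, 0 passed over all probe sets, and 3 were lower at an unadjusted p under 0.05. At that p, 6.35% of all probe sets were lower, and 11.1% of those at or above the median level. Under quantile normalization and interquartile scaling, 11 of the 12 were lower. Fgr, a Src family kinase, averaged 7.30 ± 0.16 in CKO and 8.44 ± 0.44 in controls (SD, n = 3 each; difference -1.14, limma adjusted p = 0.245). Gab2, a docking adaptor, differed by -0.99 (adjusted p = 0.395), and Tyrobp, the adaptor DAP12 of microglia, by -0.67 (adjusted p = 0.495). Of 7 genes for the inhibitory side, all were lower (median -0.58), 0 passed over all probe sets, and 4 of the 7 were lower with quantile normalization, as were 4 with interquartile scaling. The median of these 7 was -1.22 without CKO replicate 1, and 0.06, with 3 of 7 lower, for that array alone. Dok2 and Dok1, adaptors that restrain Ras, differed by -1.91 and -1.01, and Ptpn6, the phosphatase SHP-1, by -1.32 (adjusted p = 0.197, 0.315 and 0.314). Inpp5d, the phosphatase SHIP-1 that Fcgr2b recruits, differed by -0.01 (adjusted p = 0.995).

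Other immunoglobulin receptor chains and Fc receptor-like genes did not go one way, with 5 of 11 lower, 6 higher, a median of 0.03 and 0 passing over all probe sets. Not all of these genes are known to bind immunoglobulin themselves. Their median was 0.21 without CKO replicate 1 and -0.44 for that array alone. Fcrls, an Fc receptor-like gene of resident microglia, was higher in CKO, with 18.82, 18.36 and 18.31 on the CKO arrays and 17.40, 17.82 and 16.64 on the control arrays. All CKO arrays lay above the controls, and the log2 difference was 1.21 (SE 0.36, adjusted p = 0.312). Its direction was thus opposite to that of Fcgr4, and it was higher under all 3 rescalings. Trim21, a cytosolic antibody receptor, differed by -1.18 (adjusted p = 0.509), and Fcgrt, the neonatal Fc receptor, by -0.77 (adjusted p = 0.599). On the ligand side, 8 of 9 listed genes, the constant regions of the antibody chains, were not analysed here. Jchain, which joins polymers of IgM and IgA in plasma cells, stood at 5.14, 8.80 and 5.98 on the CKO arrays and at 10.76, 11.02 and 13.09 on the control arrays (difference -4.98, adjusted p = 0.121).

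For the anaphylatoxins, 6 of 9 listed source and inactivation genes were measured, 4 lower and 2 higher, with a median of -0.27 and 0 passing over all probe sets. C4b, a component of the C3 convertase, averaged 7.58 ± 0.61 in CKO and 11.90 ± 1.37 in controls (SD, n = 3 each), a difference of -4.32 (limma adjusted p = 0.0891), and hybridisation shared with its close paralog C4a was not tested. Cfb, the protease of the alternative pathway convertase, differed by -3.04 (adjusted p = 0.153). Cpm, a carboxypeptidase that trims C3a and C5a, differed by -0.54 (adjusted p = 0.662), and Hc, the source of C5a, by 0.11 (adjusted p = 0.887). C3 itself was not analysed here. Signalling genes downstream of the anaphylatoxin receptors were lower in 10 of 10 (median -0.62), 8 of them also under quantile normalization and 7 with interquartile scaling, and 0 passed over all probe sets. Grk6, a kinase that desensitises G protein-coupled receptors, differed by -0.99, the inhibitory G protein gene Gnai3 by -0.82, and Pik3r6, a subunit of PI3-kinase gamma, by -1.06 (adjusted p = 0.363, 0.424 and 0.498). With CKO replicate 1 alone, the median of these genes was 0.00167, and that of the kinases and adaptors of Fc receptors -0.16.

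Of 10 other complement receptors and surface regulators, 6 were lower and 4 higher, with a median of -0.22 and 0 passing over all probe sets. Their median was -0.46 without CKO replicate 1 and 0.01 for that array alone. Itgax and Itgb2, the alpha chain of complement receptor 4 and the beta chain it shares with complement receptor 3, differed by -2.00 and -1.30 (adjusted p = 0.121 and 0.172), whereas Itgam, as given above, differed by 0.02. Itgb2 stood at 12.78, 12.28 and 12.14 on the CKO arrays and at 13.81, 13.47 and 13.81 on the control arrays, with no overlap. Cd55, which speeds the decay of C3 convertases, differed by -1.18 (adjusted p = 0.230).

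**Figure D4:**
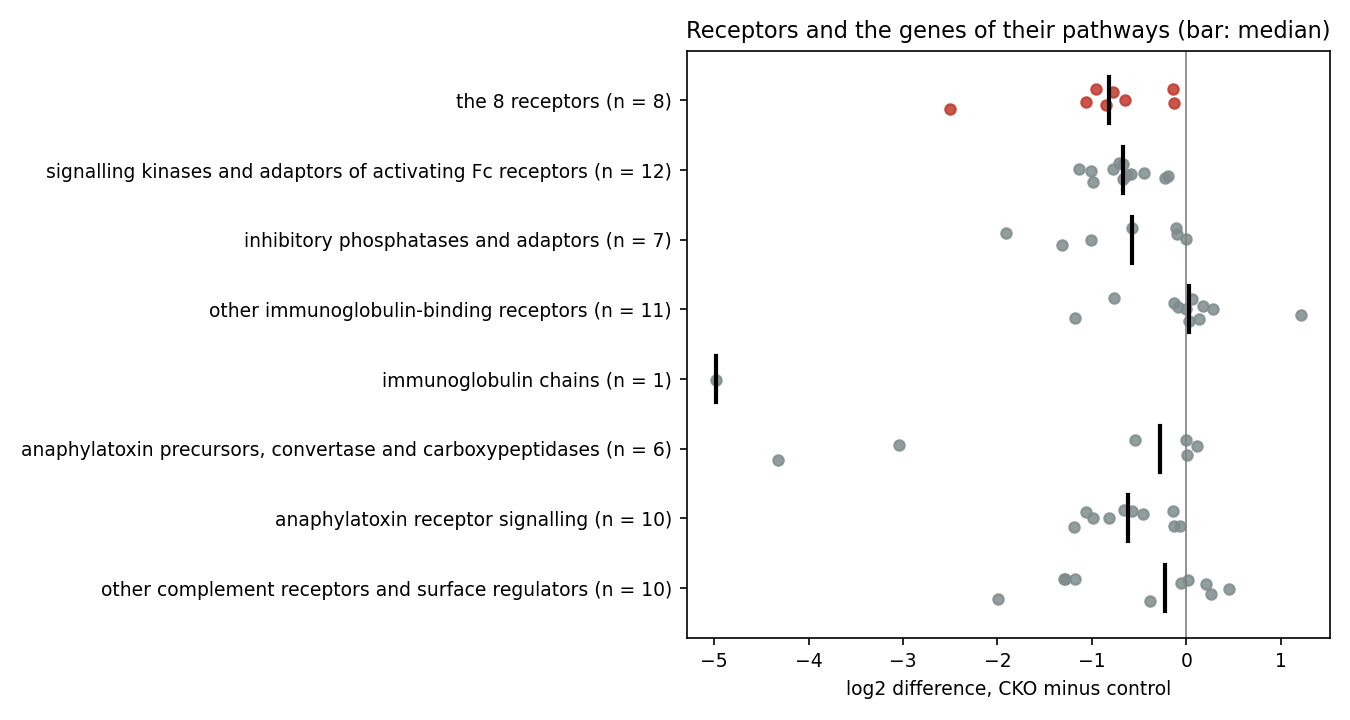
Log2 difference, CKO minus control (horizontal axis), of the 8 receptors (red points) and of each measured gene of 7 related lists (grey points), with a black bar at the median of each row. Among lists of more than 1 gene, the medians run from -0.82 for the receptors to 0.03 for the list labelled other immunoglobulin-binding receptors. That list includes Fc receptor-like genes, and its gene Fcrls at 1.21 is the highest point.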

How the data were processed

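Total RNA of brain microglia was hybridised to Affymetrix arrays after whole-transcript labelling, per the labels' protocols. The authors deposited log2 expression values computed by RMA (robust multi-array averaging), per the submitters' processing notes. The sources used here give no version, settings or annotation build for it. That the scale is log2 follows from the range of the values. Probe sets were named from the platform annotation (19572 of 22206 with 1 symbol, 0 with several, 2634 unnamed here), and the highest-mean probe set stood for a gene. All value columns were assigned to samples.

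Groups came from the sample labels. A linear model of group was fitted to all probe sets in limma 3.58.1 under R 4.3.3, using lmFit and an untrended eBayes. Tests were two-sided, and p-values were adjusted over 22206 probe sets by Benjamini-Hochberg. The fit was tested on simulated data. Of 72 genes on the pathway lists, 57 were measured. Protein sequences were not used here, and a second planned promoter pattern is not reported here. Signal over background was not measured, and precision is limited by the 6 arrays.

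The receptors, gene lists and tests were chosen with earlier results of these data known. All 8 receptors were named, with up to 3 genes per pathway list and up to 2 per marker list by the smallest p, and the 3 genes with the highest r to each receptor; gene models and antigen-receptor segments were passed over. Hc, Inpp5d, Csf1r, Spi1, Itgam, Ngp, Lyve1, Tmem119 and Sall1 were named after their values were seen. Alternatives were quantile normalization, median centring with and without interquartile scaling, leaving out the dimmest 20% or 50% of probe sets, array weights, a trended robust fit, a block for the replicate number, omission of each array, averaged probe sets per gene and an adjusted p of 0.1; CKO replicate 1 as the only CKO array was chosen after seeing the data.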

Additional observations from a re-analysis of the deposited data

How the results depend on the processing

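Of 128 results of a single receptor under an alternative setting, 115 kept their direction and their side of the threshold, 5 passed it and 8 turned their sign. No sign could turn when dim probe sets were left out, in the trended robust fit, with the replicate block or with averaged probe sets. These settings leave the log2 difference of every receptor as it was, so the 115 include results whose direction was fixed. No receptor was called with all arrays at equal weight; 3 (Fcgr4, C3ar1 and Fcer1g) were called with array weights, a setting that called 1694 probe sets in all, and 2 (Fcgr4 and C5ar1) without CKO replicate 1, which called 2209. Leaving out 1 array at a time gave 0 to 2 called receptors, 4 to 7 receptors whose groups did not overlap (7 without CKO replicate 1), a median difference of the 8 receptors from -0.93 to -0.62, and 0 to 16 called genes among the 57 of the pathway lists. Those 16 came without CKO replicate 1, array weights also gave 16, and omission of control replicate 2 gave 3. Outside the fits given above, the share of all probe sets that were separated was not counted. With interquartile scaling the median difference was -0.27, the separated receptors numbered 1, and Fcgr1 (0.014), Fcgr2b (0.00092) and Fcgr3 (0.97) turned positive. This scaling multiplies distances from the array median, which raises bright values on the arrays of narrow range. Other bright genes rose too, Csf1r from 0.03 to 1.23 and Itgam from 0.02 to 0.90. The part of this step in the receptor values was not tested. With CKO replicate 1 as the only CKO array, whose spread is taken from the controls, the median was -0.35, C5ar1 was 0.10 and C5ar2 0.71. C5ar2 ran from -0.55 to 0.11 with 1 array left out, and was positive on omission of CKO replicate 3 (0.11), of CKO replicate 2 (0.05) or of control replicate 1 (0.07). Within-array differences kept their sign in all settings tried: Fcgr4 minus Fcgr2b ran from -2.03 to -1.33 with 1 array left out, Fcgr3 minus Fcgr2b from 0.57 to 0.89, Fcgr1 minus Fcgr2b from 0.02 to 0.48 and C5ar1 minus C5ar2 from -0.87 to -0.24. Median centring without interquartile scaling and the replicate block cannot change these differences. Whether the replicate numbers pair the arrays was not settled. Deviations of same-numbered arrays correlated at -0.0055, -0.23 and 0.25, and those of differently numbered arrays at -0.33 to 0.30. Deviations within a group of 3 depend on each other, so these values cannot decide it. With the replicate number as a block, 0 receptors and 0 probe sets were called, and Fcgr4 had an adjusted p of 0.171.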
